A study of Mus musculus with 24 samples.

Results

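The T-box transcription factors are DNA-binding proteins that share one conserved domain, the T-box, and take their family name from T (Brachyury). Members act in different parts of the embryo. T and Eomes work in the primitive streak, Tbr1 and Eomes mark successive stages of the glutamatergic lineage of the cortex, and Tbx1, Tbx5, Tbx18 and Tbx20 are best known from the pharynx and heart. Tbx2 and Tbx3 are mainly repressors with wide use in the heart, limb and eye, and Tbx15 acts in skeletal and craniofacial mesenchyme.

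The genes described here were 10 named family members, T, Tbx1, Tbx2, Tbx3, Tbx5, Tbx15, Tbx18, Tbx20, Tbr1 and Eomes, out of 26225 genes counted in the GENCODE M1 annotation of mm9. Ribo-depleted RNA-Seq had been done on mouse CCE cells, a feeder-independent 129/SvEv embryonic stem cell line taken off LIF and given 0.266 µM retinoic acid for 5 days, and on heads of FVB/N fetuses at 14.5 days postcoitum (FH). The 14 RiboMinus libraries analysed (8 CCE, 6 FH) were sequenced from 7 cDNA preparations (4 CCE, 3 FH), cut by RNA hydrolysis or by DNA shearing and read at Vienna-IMP and Nijmegen. The Ribo-Zero kit gave 1 library for each tissue. The other 8 of the 24 samples, further lanes of RiboMinus RNA and combined sets, were not analysed here. The CCE preparations were technical replicates of the same RNA. By the study's list, sheared and hydrolysed preparations of 1 number came from the same depleted RNA, in FH1 as in CCE1 and CCE2. In that list FH2 had 2 rounds of depletion against 1 for FH1. The n of 4 and 3 therefore counts cDNA preparations, and p-values measure mainly technical spread. With hydrolysed preparations alone, listed as 2 separately depleted samples a tissue, 4 members were called higher and 5 lower. That fit called 71.0% of all genes tested, against 50.8% with the 7 preparations. Hydrolysed numbers ran against each other between locations (r = -0.69 in CCE, -0.49 in FH). Each summed hydrolysed preparation may therefore mix the 2 depleted samples, and the fit may not measure the spread between depletions. Tissue and strain cannot be told apart, and in a whole head fewer cells of a type and less RNA per cell cannot be told apart either.

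The 14 RiboMinus libraries analysed held between 920424 and 2473448 uniquely aligned tags, and the Ribo-Zero libraries 28708715 (CCE) and 48426051 (FH). Levels are given as RPKM, exonic tags scaled to the length of the merged exons and to the library's unique tags. In its comparisons of expression the study took genes under 3 RPKM as not expressed, a limit not applied here to levels. Most of the listed markers were higher in the sample they stand for. Neuron markers summed to between 410 and 668 RPKM in the FH preparations and to between 42.2 and 51.4 in CCE. Extraembryonic endoderm markers summed to between 729 and 968 RPKM in CCE and to between 147 and 169 in FH, where Gata4 and Hnf4a had no RiboMinus tag and 2 and 8 Ribo-Zero tags. Of these 17 markers, 13 were called lower in FH, and Sox7, Thbd and Afp were not called. Pdgfra was called higher, at 5.25 ± 1.15 RPKM in FH (SD, n = 3) and 1.37 ± 0.225 in CCE (SD, n = 4). Pou5f1, the stem cell factor Oct4, averaged 17.9 ± 2.45 RPKM (SD, n = 4) in CCE and had no tag in FH by either method. The FH preparations also held skeletal muscle RNA, with Myog at 48.5 ± 1.58 RPKM (SD, n = 3) and no Myog tag in the CCE preparations, against 7 in the CCE Ribo-Zero library. Of the marker lists, 9 of 10 neuron and 7 of 8 muscle genes were called higher in FH, among them Dcx (30.7 ± 10.8 RPKM in FH, SD, n = 3, and 7 RiboMinus tags in CCE), Elavl3 (23.1 ± 3.13 RPKM, 8 tags) and Myh3 (9.30 ± 1.37 RPKM, no RiboMinus tag and 23 Ribo-Zero tags), while Des, of muscle filaments, fell by 1.69 ± 0.23 (log2, SE). Of the pluripotency genes 7 of 10 were called lower, Zfp42 with 189 RiboMinus tags in CCE and none in FH, where Ribo-Zero had 1. Sox2 and Klf4 were called higher, but their Ribo-Zero log2 ratios were -0.99 and -0.018. Over all genes tested, 23.8% were called higher in FH and 27% lower.

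Because the members share a domain, their coding sequences were compared for stretches that a tag could not assign. Between 97.1% (Tbx5) and 100% of the 36-base words in each member's exons occurred once in the mm9 genome. The closest 30-base coding stretches are shown for 4 pairs, read 5′ to 3′ on the coding strand, with capitals at the bases that differ. The pairs were taken in order of protein identity, each gene used once.
Tbx2: CatcctgaactccatgcacaaGtaccagcc
Tbx5: TatcctgaactccatgcacaaAtaccagcc
Tbx15: tatgtGtaTcatagctctaagtggatggtg
Tbx18: tatgtTtaCcatagctctaagtggatggtg
Tbx3: atgcataagtaccagccGcggTtCcacatc
Tbx20: atgcataagtaccagccAcggGtGcacatc
Tbr1: cggcaTcaaacGgagatgatcatcacTaaa
Eomes: cggcaCcaaacTgagatgatcatcacCaaa

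All 8 stretches lie in coding exons. In mm9 they are at chr11:85649299-85649328 (Tbx2, plus strand), chr5:120294976-120295005 (Tbx5, plus), chr3:99118668-99118697 (Tbx15, plus) and chr9:87619278-87619307 (Tbx18, minus). The others are at chr5:120125582-120125611 (Tbx3, plus), chr9:24563284-24563313 (Tbx20, minus), chr2:61643419-61643448 (Tbr1, plus) and chr9:118388627-118388656 (Eomes, plus). The first 2 pairs differed at 2 of 30 bases and the other 2 pairs at 3. Over the aligned protein, Tbx2 and Tbx5 shared 66.9% of 181 residues, and Tbx15 and Tbx18 61.8% of 566. Tbx3 and Tbx20 shared 58.8% of 211 residues, and Tbr1 and Eomes 58.7% of 571. Tbx2 and Tbx3 shared 65.8% of 651 residues, but are not shown as a pair because each gene was used once. The alignment allowed 2 mismatches in a 36-base tag. Only Tbx15 and Tbx18 had 36-base coding windows that near to each other, 6 windows in each gene.

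Tbx2 was the highest of the members in the RiboMinus preparations of both tissues, and the members below it differed. In CCE, Tbx2 (67.3 ± 26.3 RPKM, SD, n = 4) and Tbx3 (11.1 ± 1.44) made up 76.7% and 13.6% of the summed RPKM of the 10 genes. In Ribo-Zero these shares were 34.0% and 49.1%. Tbx20 (2.69 ± 0.352) and Tbx18 (2.31 ± 0.263) came next, with ranges that overlapped. Eomes, Tbx5 and Tbx15 followed between 0.507 and 1.18 RPKM, each overlapping the next. T, Tbr1 and Tbx1 were at 0.204 RPKM or less. In FH the order was Tbx2 (23.5 ± 11.0 RPKM, SD, n = 3), Tbr1 (10.4 ± 2.09) and Eomes (5.79 ± 0.709), whose ranges did not overlap. Tbx1, Tbx15 and Tbx3 lay between 2.16 and 2.51 RPKM with overlapping ranges, and Tbx18 below them at 1.43 overlapped Tbx3. T, Tbx20 and Tbx5 were at 0.443 RPKM or less. The FH order was another in Ribo-Zero, where Tbx15 (4.97 RPKM) and Tbx2 (4.53) came first and Tbr1 (2.39) was number 6.

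**Figure D1:**
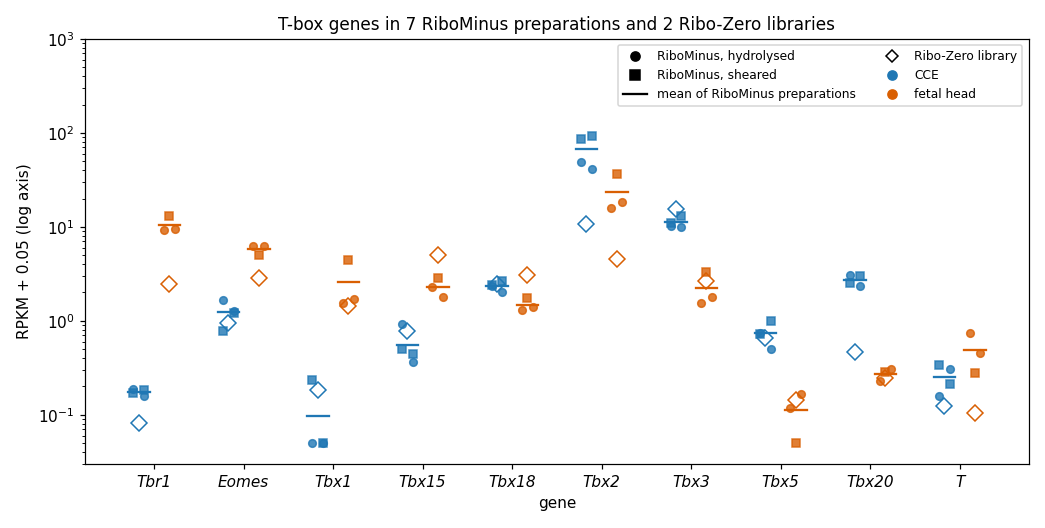
Level of each T-box gene as RPKM plus 0.05 on a log axis, in 4 CCE (blue) and 3 fetal head (orange) RiboMinus preparations (filled points, with a line at their mean) and in 1 Ribo-Zero library of each tissue (open diamonds). Tbr1, Eomes, Tbx1 and Tbx15 lie higher in fetal head by both methods, and Tbx2 and Tbx3 lie higher in CCE.

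Of the 10 members, 9 reached 20 tags over the 7 preparations and were tested with limma-voom among 15582 genes. Tbr1, Tbx1, Tbx5 and Tbx20 reached that total only through the tissue where they were high. Tbr1 and Tbx1 had 9 and 1 tags in CCE, and Tbx5 and Tbx20 had 3 and 10 in FH. 4 were called higher in FH (23.8% of all genes tested were) and 5 lower (27%). The preparations of the tissues did not overlap for the same 4 higher members (24.2% of all genes) and the same 5 lower members (28.3%). The members' median log2 change was -0.71, which is the value of Tbx18 alone, beside -0.18 for all genes tested. Scaling by the median of ratios moved the median of all genes by 0.23 and the share of calls that were higher in FH from 46.9% to 58.1%, and it changed the sign of no member. The median Ribo-Zero log2 ratio of FH to CCE over 17647 genes was -0.37. In the Ribo-Zero libraries 2 members, Tbr1 and Tbx1, were past 8-fold higher in FH (9.53% of 17647 genes were) and none past 8-fold lower (3.47%). With repeated positions counted once Tbx1 was under 8-fold, at a log2 ratio of 2.87, and Tbr1 alone was past it.

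**Figure D2:**
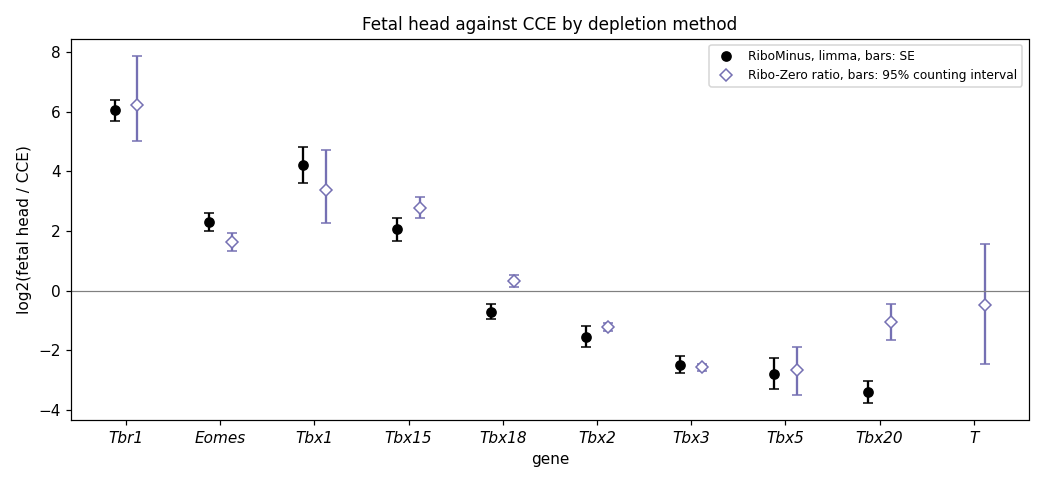
Log2 ratio of fetal head to CCE for each gene, from limma on 7 RiboMinus preparations (black, bars 1 SE) and from the 2 Ribo-Zero libraries (open diamonds, bars the 95% counting interval). Tbr1 stands highest, at 6.06 and 6.24, and Tbx18 is the gene tested by limma whose estimates fall on opposite sides of 0; T was not tested by limma.

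Both forebrain members were higher in FH. Tbr1, a factor of early-born deep-layer neurons of the cortex, was at 9.13, 12.8 and 9.32 RPKM in hydrolysed FH1, sheared FH1 and hydrolysed FH2. It was at 0.137, 0.122, 0.108 and 0.135 RPKM in hydrolysed CCE1, sheared CCE1, hydrolysed CCE2 and sheared CCE2, which rested on 9 tags in all. The log2 difference was 6.06 ± 0.35 (SE; limma adjusted p = 7.69e-07). Ribo-Zero gave 2.39 RPKM in FH and 0.0317 in CCE, where it had 5 tags, and the ratio was 75.4 (95% interval 32.1 to 233).

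Eomes (Tbr2), which marks the intermediate progenitors that come before Tbr1 neurons, had tags in both tissues, in CCE under the study's limit of 3 RPKM. FH preparations held 6.16, 4.97 and 6.24 RPKM, and CCE preparations 1.63, 0.725, 1.22 and 1.16 in the order given for Tbr1. The groups did not overlap and differed by 2.30 ± 0.29 on the log2 scale (SE; limma adjusted p = 8.06e-05). In Ribo-Zero FH was 3.10 times CCE (95% interval 2.52 to 3.85). Eomes tags in CCE, 66 in RiboMinus and 107 in Ribo-Zero, fell on 5 of 6 and on 6 of 6 exons. Tbr1 tags in CCE, 9 and 5, fell on 3 and 2 of 8 exons, and were too few to compare the spread over exons.

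The other genes of the cortical glutamatergic lineage moved in the same direction as these. All 18 listed genes were tested and called higher in FH (23.8% of all genes tested were). The median log2 change was 5.55, which did not move when the 2 genes with no CCE tag were set to a floor of 3 tags. Those genes, Neurod6 and Slc17a6, lay above the median at 8.44 and 6.32. Genes with 1 or 2 CCE tags were not set to the floor, so it says little about the median. Neurod2, a neuronal differentiation factor, was at 34.9 ± 15.2 RPKM in FH (SD, n = 3) and had 1 RiboMinus tag in CCE. Neurod6, of the same family, was at 25.3 ± 7.49 RPKM in FH with no tag in CCE by either method. Pax6, a progenitor factor, rose least, by 1.48 ± 0.25 (log2, SE; limma adjusted p = 0.000647).

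Tbx1, a regulator of the pharyngeal arches, was at 1.49, 4.39 and 1.66 RPKM in hydrolysed FH1, sheared FH1 and hydrolysed FH2. A single tag in sheared CCE1 was its whole count in CCE. The log2 difference was 4.23 ± 0.60 (SE, limma adjusted p = 1.84e-04). With the tags of each tissue pooled the ratio was 50.0 on that single CCE tag (95% interval 8.44 to 2025). Ribo-Zero gave 121 tags in FH and 7 in CCE, a ratio of 10.2 (95% interval 4.82 to 26). Introns held 52.5% of the Tbx1 gene's tags in the FH RiboMinus libraries and 46.9% in Ribo-Zero.

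Tbx15, a mesenchymal factor of the skeleton and skin, was at 2.23, 2.83 and 1.73 RPKM in the FH preparations. CCE preparations held 0.869, 0.447, 0.317 and 0.395 RPKM, all below the lowest FH value. The difference was 2.06 ± 0.39 (log2, SE; limma adjusted p = 0.00114), and the Ribo-Zero ratio was 6.85 (95% interval 5.43 to 8.75). That is 2.78 on the log2 scale, and it was 2.11 with repeated positions counted once. In Ribo-Zero Tbx15 was the highest of the 10 members in FH, at 4.97 RPKM. Its introns, 110132 bases in all, held 90.8% of the gene's tags in FH RiboMinus and 83.1% in FH Ribo-Zero.

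Among the craniofacial mesenchyme genes listed with Tbx15 and Tbx18, 5 of 14 were called higher in FH and 4 lower. Of all genes tested, 23.8% were called higher and 27% lower. The list's median log2 change was -0.31. Meox2, of muscle precursors, and Pax3, of muscle precursors and neural crest, rose most, by 5.19 ± 0.51 and 3.67 ± 0.46 (log2, SE). Tcf21, of visceral and muscle mesenchyme, fell by 3.86 ± 0.39 and Msx2 fell by 2.36 ± 0.34. Limma adjusted p-values of these 4 genes were 1.94e-04 or lower.

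Tbx2 was higher in CCE. Hydrolysed CCE1, sheared CCE1, hydrolysed CCE2 and sheared CCE2 held 48.8, 87.0, 40.8 and 92.8 RPKM, against 15.9, 36.1 and 18.4 in hydrolysed FH1, sheared FH1 and hydrolysed FH2. Sheared preparations were the higher ones in each tissue. The log2 difference was -1.55 ± 0.36 (SE; limma adjusted p = 0.00417), and -1.38 with hydrolysed preparations alone. CCE was 2.35 times FH in Ribo-Zero (95% interval 2.14 to 2.58). The 8 CCE and 6 FH libraries taken singly overlapped, with sheared FH1 at Nijmegen at 48.5 RPKM above the lowest CCE library at 40.2.

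Tbx3, the closest relative of Tbx2 over the longest alignment (651 residues, 65.8% identical), showed the same direction with less spread. CCE preparations were at 10.3, 11.0, 9.86 and 13.1 RPKM and FH preparations at 1.51, 3.26 and 1.73. They differed by -2.49 ± 0.28 (log2, SE; limma adjusted p = 3.19e-05). Ribo-Zero gave 15.4 RPKM in CCE and 2.57 in FH, a ratio of 5.98 (95% interval 5.49 to 6.53). The first exon of Tbx3 overlaps Gm2301, an antisense transcript on which RiboMinus tags numbered 26 in CCE and 15 in FH. Without strand the origin of tags in the shared bases cannot be told apart. The 4668 bases of Tbx3 outside the overlap gave the same call.

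Tbx20, a cardiac factor, was at 3.01, 2.46, 2.31 and 2.96 RPKM in the CCE preparations and at 0.180, 0.236 and 0.257 in FH. The difference of -3.39 ± 0.37 (log2, SE; limma adjusted p = 2.61e-05) was the largest fall of a member in this fit, on 158 CCE and 10 FH tags. It was -4.39 with Vienna-IMP tags alone and -2.45 with Nijmegen tags alone, where Tbx3 was at -2.48. In Ribo-Zero CCE held 0.411 RPKM and FH 0.198, a ratio of 2.08 (95% interval 1.36 to 3.18).

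Tbx5, of the heart and forelimb, was low throughout. CCE preparations held 0.699, 0.680, 0.452 and 0.938 RPKM and FH preparations 0.0683, 0 and 0.117, from 35 and 3 tags. The log2 difference was -2.79 ± 0.51 (SE, limma adjusted p = 9.34e-04). The pooled CCE to FH ratio was 8.87 (95% interval 2.80 to 45.1), and Ribo-Zero gave a ratio of 6.37 (95% interval 3.75 to 11.4).

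The cardiac and pharyngeal genes listed with these members were split. Of 14, 6 were called higher in FH (23.8% of all genes tested were) and 4 lower (27%). Their median log2 change was -0.25, against a Ribo-Zero median of 0.29. Gata5 and Hand2, cardiac factors, had log2 changes of -6.14 ± 0.60 and -3.65 ± 0.28 (SE), the first on 2 FH tags. Mef2c, a factor of muscle and of neurons, and Gja5, a connexin, rose by 4.86 ± 0.43 and 3.19 ± 0.36. Limma adjusted p-values of the 4 genes were 3.31e-05 or lower. Of the extraembryonic endoderm markers, 13 of 17 were called lower in FH and 1, Pdgfra, higher, and Krt8 fell by 6.18 ± 0.56 (log2, SE); their part in the levels of Tbx3, Tbx5 and Tbx20 was not tested.

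Tbx18, a factor of the sinus venosus, somites and mural cells, was the least stable of the members tested. CCE preparations were at 2.30, 2.36, 1.97 and 2.61 RPKM, and FH preparations at 1.27, 1.70 and 1.34. They did not overlap, with a log2 difference of -0.71 ± 0.26 (SE; limma adjusted p = 0.0432), but the adjusted p was above 0.05 in 14 of 22 alternatives. Leaving out any 1 preparation other than sheared FH1 ended the call, at adjusted p from 0.052 to 0.148. In Ribo-Zero the order was the other way, 3.00 RPKM in FH and 2.42 in CCE, a ratio of 1.24 (95% interval 1.09 to 1.42). With repeated positions counted once, that log2 ratio went from 0.31 to -0.11.

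T itself had too few tags for the test. It had 6 tags in the CCE RiboMinus libraries and 11 in FH, so that FH was 2.41 times CCE with a 95% interval of 0.817 to 7.94. Ribo-Zero held 5 tags in CCE and 6 in FH, a ratio of 0.711 (95% interval 0.181 to 2.95). A difference between the tissues was not detectable at this depth.

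The primitive streak and mesendoderm genes listed beside T and Eomes did not move one way. Of 9 tested, 4 were called lower in FH (27% of all genes tested were) and 3 higher (23.8%). Their median log2 change was -0.61. The Ribo-Zero median of the list was 1.28, which is the value of Wnt3 alone. Wnt3, a signal of the streak and one of the 4 called lower, was at -0.78 in RiboMinus. Among the 9 tested only Wnt3 had opposite signs by the kits. Nodal, a signal of the early embryo, and Cdx1, of the posterior body, were at 6.42 ± 1.82 and 4.27 ± 1.68 RPKM in CCE (SD, n = 4), with 1 RiboMinus tag each in FH. Lhx1 and Gsc, which the head also uses, rose by 4.43 ± 0.40 and 4.02 ± 0.84 (log2, SE; limma adjusted p = 8.39e-06 and 0.00223). Of the trophoblast genes, with which Eomes is also shared, 3 of 6 tested were called lower in FH and 1, Elf5, higher, with a median of -0.96. Hand1 had 78 RiboMinus tags in CCE and none in FH, where Ribo-Zero had 8, and Ascl2 had 39 and 2.

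Eye genes were listed because Tbx2, Tbx3 and Tbx5 act in the dorsal retina. Of 9 tested, 6 were called higher in FH (23.8% of all genes tested were), led by Six3 and Aldh1a3, and 2 lower (27%). The median log2 change was 4.04, or 3.94 with the gene that had no CCE tag at the floor of 3 tags. The 2 lower were Bmp4 and Vax2. Bmp4, the dorsal signal, was at 33.3 ± 3.19 RPKM in CCE (SD, n = 4) and 5.06 ± 0.601 in FH (SD, n = 3). Vax2, a ventral retina factor, had 1 RiboMinus tag and 12 Ribo-Zero tags in FH.

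Of the 7 other family genes in the annotation, 4 were tested. Tbx22, the palate factor, had 29 RiboMinus and 105 Ribo-Zero tags in FH and none in CCE by either method (limma adjusted p = 4.1e-05). Tbx4, of the hindlimb, fell by 2.43 ± 0.55 (log2, SE; limma adjusted p = 0.00368). Mga and Tbx6 did not pass the test, and Mga was at 7.04 ± 2.62 RPKM in CCE (SD, n = 4) and 4.52 ± 1.72 in FH (SD, n = 3). Tbx10, Tbx19 and Tbx21 had too few tags.

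Levels of some members differed between the depletion kits. The kits also went with other RNA, other locations and longer reads, which cannot be told apart. Fragmentation differed too, as Ribo-Zero RNA was hydrolysed only and the RiboMinus side of the ratios pools sheared and hydrolysed libraries. For Tbx2, sheared and hydrolysed RiboMinus libraries averaged 90.9 and 44.4 RPKM in CCE and 36.4 and 16.8 in FH. Ribo-Zero gave 10.6 RPKM in CCE and 4.53 in FH. RiboMinus to Ribo-Zero ratios for Tbx2 were 6.07 in CCE (95% interval 5.66 to 6.51) and 4.60 in FH (95% interval 4.16 to 5.09). Of the genes with enough tags in both, 1.49% in CCE and 4.26% in FH lay above Tbx2. Tbx20 in CCE had a ratio of 6.56 (95% interval 4.78 to 9.13), with 1.24% of genes above it, but in FH 1.13 (95% interval 0.508 to 2.29). Tbr1 in FH was at 4.14 (95% interval 3.69 to 4.65). T in FH had the highest ratio, 8.95 (95% interval 3.03 to 29.5), on 11 and 6 tags. It had too few tags to be placed among the genes with at least 20 by each method. On the other side, Tbx15 and Tbx18 in FH were at 0.428 and 0.459, under the median of all genes. Tbx3 was near 0.7 in both tissues, at 0.711 and 0.752. In Ribo-Zero Tbx3, not Tbx2, was the highest member in CCE.

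**Figure D3:**
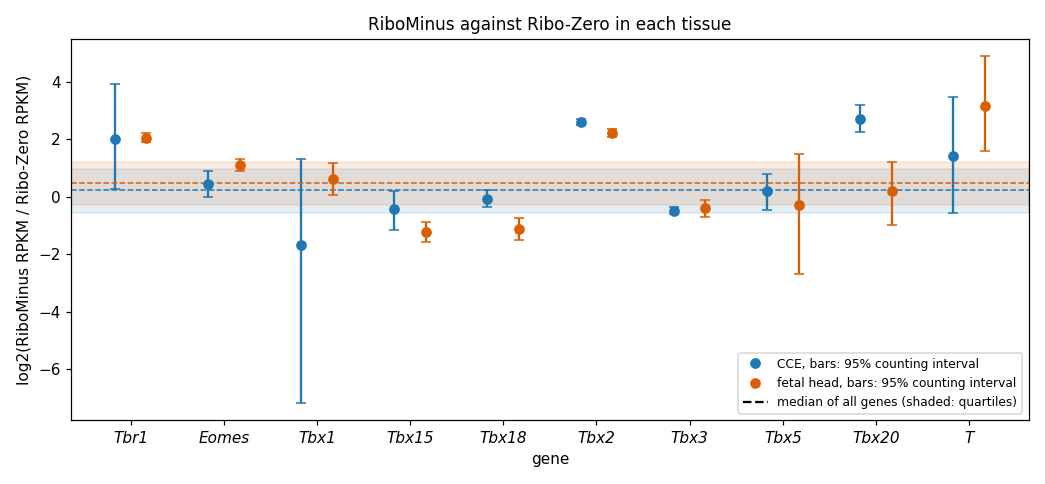
Log2 ratio of RiboMinus to Ribo-Zero RPKM for each gene in CCE (blue) and fetal head (orange), with 95% counting intervals, over the median (dashed) and quartiles (shaded) of all genes with at least 20 tags by each method. RiboMinus pools sheared and hydrolysed libraries, and Ribo-Zero is hydrolysed only. Tbx2 lies above the shaded band in both tissues, at 2.60 and 2.20, and Tbx15 and Tbx18 lie below it in fetal head.

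Tags also fell differently along the genes. The 3′ UTR held fewer tags per kb than the coding exons for every member with tags in both regions in the RiboMinus libraries, from 0.0276 times (Tbx18 in FH) to 0.896 times (Tbx5 in FH, 1 tag in each region). In Ribo-Zero the 3′ UTR of Tbx18 in FH was at 0.791 times and that of Tbx3 at 0.986 times in CCE and 1.27 times in FH. Tbx2 stayed low in both, at 0.152 in CCE RiboMinus and 0.368 in CCE Ribo-Zero. For Tbx18, coding exons alone gave a log2 difference of -0.51 in RiboMinus (limma adjusted p = 0.165) and 0.22 in Ribo-Zero. Exons were denser than introns for all members where both had tags except Tbx1 in CCE RiboMinus, which had 1 exonic and 3 intronic tags.

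**Figure D4:**
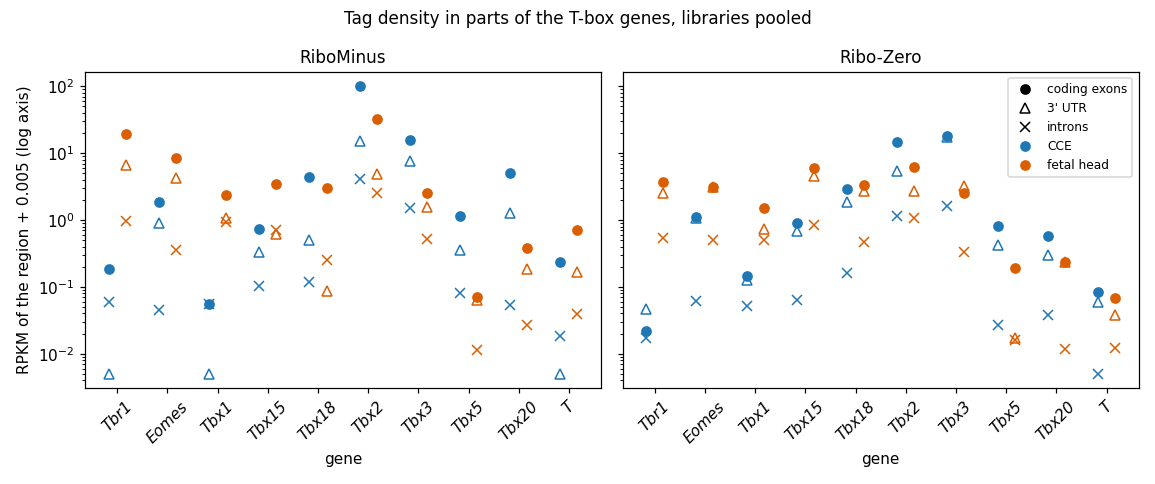
Tag density of coding exons (circles), 3′ UTR (triangles) and introns (crosses) of each gene as RPKM of that region plus 0.005 on a log axis, with the libraries of a tissue pooled, for RiboMinus (left) and Ribo-Zero (right). The 3′ UTR of Tbx18 in fetal head lies under the introns in RiboMinus and close to the coding exons in Ribo-Zero.

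The genes whose log2(RPKM + 0.5) went most like Tbx2 over the 16 libraries, among 15260 genes, were Isyna1 (Pearson r = 0.986), Pkdcc (0.984) and B430305J03Rik (0.984). These points share tissue, kit and fragmentation, so r is a description of these libraries.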

How the data were processed

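The deposited files list uniquely aligned tags, 1 a line, which the authors aligned to mm9 with Bowtie after removing ribosomal tags. Mitochondrial tags were also removed from the RiboMinus libraries. They stayed in the Ribo-Zero totals, at 8.23% in CCE and 4.54% in FH. The score column of the deposited files is constant and was not used. A tag was given to a gene by its midpoint in the merged exons of GENCODE M1 (22380 protein-coding and 3845 non-coding genes), without strand, and RPKM used all unique tags. Tags of both locations were summed per cDNA preparation. Preparation names follow the study's own list, not the labels. Genes with at least 20 tags were tested with limma 3.58.1 (voom, FH against CCE, Benjamini-Hochberg over all genes, threshold 0.05). Ribo-Zero ratios, pooled RiboMinus ratios and ratios between kits have exact 95% intervals that cover counting error only. These ratios have no test. An exact permutation test of 4 against 3 cannot go below p = 0.0571. In simulated counts for this comparison over 15582 genes, the test found 182 of 200 genes given a 4-fold change, and it also called 9 genes given none. The simulated counts were independent, with a fixed dispersion and no fragmentation effect, so these rates need not hold for the data. Members and gene lists were chosen with earlier results of these data known, so no list is independent support. Listed genes with fewer than 20 tags in 1 tissue passed the tag minimum only with the tags of the other. All 10 members were named, and per list the 2 called genes with the largest change in each direction. Pax6, Wnt3, Mga, Tbx6, Tbx10, Tbx19, Tbx21, Hnf4a, Sox7, Thbd and Afp were added after their values were seen. So were Emx1, Neurog1, Neurog2, Nhlh1, Fezf2, Slc17a6 and Slc17a7, named for few CCE tags. Map2 and Tfap2c were not analysed here.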

Additional observations from a re-analysis of the deposited data

Results flagged for a closer look

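A gap between 1 sample and the rest of its group was looked for in 30 groups of values, of which chance flags about 1 in 20, and 3 were found. Tbx1 was at 0.185 RPKM in the sheared CCE1 preparation and at 0 in the other CCE preparations, and at 0.286 RPKM in the Vienna-IMP library of that preparation with 0 in the other 7 libraries; both values are the same single tag. Tbr1 was at 16.2 RPKM in the sheared FH1 library of Nijmegen, above the next FH library at 9.91. Tbx18 had opposite directions by the 2 kits, with a Ribo-Zero log2 ratio of 0.31 against -0.71 in RiboMinus; this difference was not tested, and the Ribo-Zero side has 1 library a tissue.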

How the results depend on the processing

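Apart from Tbx18, the 8 members called kept their direction and their call in each alternative in which they were tested, but not their size. With limma on log2(RPKM plus 1), a scale that understates low genes, the difference was 3.33 for Tbr1, 1.66 for Tbx1, 1.11 for Tbx15, -0.44 for Tbx18, -1.59 for Tbx20 and -0.67 for Tbx5. With a mean RPKM over 3 asked for, 2 of the 4 members left were called higher in FH and 2 lower, with 54.7% of genes called; Tbr1, Eomes and Tbx3 passed that filter only through the tissue where they were high. With tags of Nijmegen alone, a fit that called 36.9% of genes, 3 were called lower, Tbx5 being untested and Tbx18 at an adjusted p of 0.349. Leaving out 1 preparation at a time gave 4 members called higher each time and 4 to 5 lower, and between 40.5% and 52.1% of genes called. Title numbers are shared by both tissues, and same-numbered libraries had correlations between -0.69 and 0.61. Numbers 1, 2 and 6 joined libraries of the same fragmentation and location (r = 0.46, 0.18 and 0.61). Numbers 3, 4 and 5 joined a sheared and a hydrolysed library (r = -0.07, -0.69 and -0.42). With 12 libraries and a replicate block, 4 members were called higher and 4 lower, and 56.2% of genes. Hydrolysed preparation numbers ran against each other between locations (r = -0.69 in CCE, -0.49 in FH), and crossing them at Nijmegen left 4 higher and 4 lower, without Tbx18 (adjusted p = 0.0768), and 48.0% of genes called. Without the hydrolysed FH1 library of Vienna-IMP, chosen after the data were seen, the counts were again 4 and 4, with 47.5% of genes called. With repeated positions counted once the Ribo-Zero log2 ratio of Tbx18 was -0.11, that of Tbx15 2.11, of Eomes 1.08 and of Tbx2 -1.44, and with coding exons alone that of Tbx3 was -2.82 and that of Tbr1, on 1 CCE tag, 7.80 (95% interval 5.31 to 13.1); the cause was not tested. Depth limits T in both tissues, Tbx1 and Tbr1 in CCE and Tbx5 and Tbx20 in FH, each on 11 tags or fewer per tissue in RiboMinus.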
